A study of Rattus norvegicus with 6 samples.

Results

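The transcripts described here were the NONCODE lncRNAs of the rat sciatic nerve that lay far from every listed gene. A lncRNA was included when its identifier began with NONRATT, its length was 10000 bases or less, and its locus was more than 10000 bp away from the span of every gene of the mRNA table on the same chromosome. This rule used positions only and no expression value, and 4 NONCODE transcripts were left out by name. It gave 1410 of the 22721 lncRNAs in the table, or 6.96% of the 20259 NONCODE lncRNAs. They came from 1193 separate loci, of which 152 held 2 or more of these lncRNAs within 10000 bp of each other.

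Long noncoding RNAs are transcripts that are longer than small RNAs and for which no protein product has been assigned. Those made from loci between genes share neither exons nor introns with a coding gene, so their reads are not mixed with those of an overlapping mRNA. Whether that holds for the lncRNAs described here depends on how complete the list of genes was. Many are expressed at low levels and in few cell types, and some act near their own locus while others act elsewhere in the nucleus or in the cytoplasm. After a nerve crush, the axons beyond the lesion break down, myelinating Schwann cells turn into repair cells, and macrophages enter the nerve.

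RNA came from the sciatic nerves of 6 Sprague-Dawley rats that were 1 month old, with 2 rats in each of 3 groups: control, 4 days after the crush (D4) and 7 days after it (D7). In D4 and D7 the left sciatic nerve had been clamped with hemostatic forceps. The sample labels call the controls normal, while the methods of the study describe an operation without the clamp. Every rat was sequenced as a library of its own, and the letters a and b tell the rats of a group apart. Total counts per library were 2694777 to 3043817 for lncRNAs and 18727255 to 25350886 for mRNAs, and the lncRNAs far from genes took 1.78% to 2.24% of the lncRNA counts. All positions are on Rnor_6.0.

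Transcript sequences of these lncRNAs are not shown, because no genome of that build was used here. What can be shown is the sequence of named RNAs that NCBI RefSeq (GRCr8) places between the same neighbouring genes. Of the 1410 lncRNAs, 907 lay between a pair of genes that kept their order and approximate distance in GRCr8, and the interval of 62 of these held a RefSeq miRNA gene. A RefSeq gene in the same interval need not be the same transcript, since positions were not compared across builds. The mature miRNAs below belong to the intervals of the 2 most abundant lncRNAs, NONRATT003362.2 and NONRATT003363.2 (between Mrpl23 and Igf2, which also holds H19), and of NONRATT014558.2 (between Nanos3 and Zswim4). Each is written 5′ to 3′ as RefSeq gives it, with the seed, bases 2 to 8, in capitals.
rno-miR-675-5p: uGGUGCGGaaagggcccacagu
rno-miR-675-3p: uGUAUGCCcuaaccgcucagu
rno-miR-23a-3p: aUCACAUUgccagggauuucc
rno-miR-27a-3p: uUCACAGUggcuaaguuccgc
rno-miR-24-3p: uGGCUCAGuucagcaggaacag
rno-miR-181c-5p: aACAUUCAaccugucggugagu
rno-miR-181d-5p: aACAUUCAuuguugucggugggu
The last pair share the seed ACAUUCA, and the other miRNAs shown have different seeds. H19 is an imprinted lncRNA whose transcript is the precursor of the miR-675 pair. The miRNAs themselves were not measured in these libraries.

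The lncRNAs far from genes were expressed at low levels. Their median FPKM (fragments per kilobase of transcript, scaled to library size) was 0.246 and 0.276 in the control libraries, 0.267 and 0.254 at D4, and 0.269 and 0.320 at D7. The other NONCODE lncRNAs were higher in every library: the medians were 1.27 to 1.60 FPKM for the 3150 within 10000 bp of a gene without overlap, 0.803 to 0.988 for the 4013 that partly overlapped a gene span, and 0.757 to 1.001 for the 11681 that lay wholly inside one. In a given library 24.3% to 29.6% of the lncRNAs far from genes had 0 counts, and 35 had 0 counts in all 6 libraries. At the other end, 333 had 10 or more counts in every library and 61 had 100 or more.

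**Figure D1:**
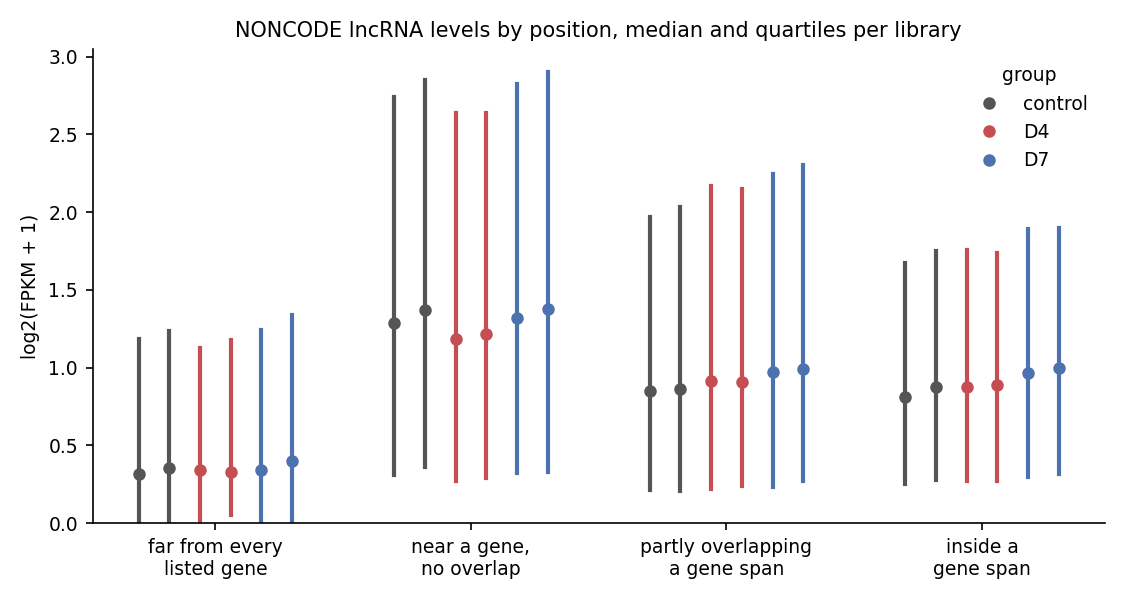
Levels of NONCODE lncRNAs by position, as log2(FPKM + 1) on the vertical axis; each point is the median and each line the range from the lower to the upper quartile in 1 library, in gray for control, red for D4 and blue for D7. The 6 medians of the lncRNAs far from genes sit between 0.32 and 0.40, below all medians of the other 3 position classes.

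Most of these loci were short and of 1 block. The median length was 575.5 bases (203 to 8474), and in 61.8% the locus was exactly as long as the transcript, against 80.1% of the lncRNAs near a gene and 42.8% of those inside one. In the other 38.2% the locus was longer than the transcript, with a median span of 4523.5 bp. The distance to the nearest listed gene ranged from 10002 to 1440901 bp with a median of 31985.5 bp. It exceeded 100000 bp for 246 lncRNAs and 500000 bp for 19. They lay on 21 chromosomes, from 168 on chromosome 1 to 24 on chromosome 20.

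The annotation around these loci was not complete. In 678 of the 907 intervals RefSeq listed a further lncRNA gene, and in 368 a further protein-coding gene that the mRNA table did not list under its symbol. The table's names for 52 of the lncRNAs were the same as a RefSeq symbol or synonym, of which 45 were protein-coding. Far from a gene therefore means far from the genes of the mRNA table, not from all annotated genes.

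A lncRNA was tested when its counts passed the low-count filter of edgeR, and was called changed when the Benjamini-Hochberg adjusted p over all lncRNAs was under 0.05 and the fold change was at least 2. Of the 1410 lncRNAs, 541 (38.4%) were tested, against 67.2% of those near a gene and 60.5% of those inside one. The other 869 had at most 67 counts in the 6 libraries together and could not be judged. The smallest change called at D4 was 2.07 on the log2 scale for members with a mean count under 20, and 1.09 for those with 100 or more.

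At D4 against control, 41 of the 541 tested lncRNAs rose and 26 fell. Together the 67 were 12.4% of the tested members, beside 10.1% of all lncRNAs tested, of which 5.19% were higher and 4.87% lower. The median log2 fold change of the 541 was 0.00098, beside 0.02 over all lncRNAs. The lncRNAs within 10000 bp of a gene had 116 rises and 187 falls, or 14.3% of 2117 tested, and a median of -0.15. Those partly overlapping a gene had 180 rises and 102 falls, or 10.8% of 2605, and a median of 0.18. Those inside a gene had 280 rises and 190 falls, or 6.65% of 7071, and a median of 0.08. Whether these classes differ was not tested.

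The balance of rises and falls at D4 depended on scaling. When lncRNAs and mRNAs were scaled together, the median of all lncRNAs moved to -0.19 and the members had 30 rises and 34 falls (46.9% rises, against 61.2%). Without TMM factors the median was 0.20, with 50 rises and 22 falls. The count also rested on single libraries: 11 were called without D4 a, 6 without D4 b, 33 without control a, 24 without control b, 44 without D7 a and 42 without D7 b.

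At D7 against control, 22 members rose and 19 fell, or 7.58% of the tested members beside 5.79% of all lncRNAs, of which 3% were higher and 2.79% lower. The median log2 fold change was 0.01, beside 0.04. Here 8 were called without control a, 10 without control b, 4 without D7 a, 4 without D7 b, 14 without D4 a and 14 without D4 b. Both days share the control libraries. Of the 60 calls of the lncRNAs named by rule, 8 were kept with each of the 6 libraries left out in turn, and 16 were lost whichever library was left out. The 16 were the D4 calls of NONRATT002559.2, NONRATT021570.2 and NONRATT025435.2, the call of NONRATT027531.2 between D7 and D4, and the D7 calls of NONRATT002561.2, NONRATT002773.2, NONRATT002777.2, NONRATT002778.2, NONRATT008625.2, NONRATT011649.2, NONRATT012386.2, NONRATT012866.2, NONRATT022770.2, NONRATT024538.2, NONRATT025338.2 and NONRATT028874.2.

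Members with high counts were called more often, as were lncRNAs in general. At D4 the share called was 10.7% of members with a mean count under 20 and 22.1% of those with 100 or more, beside 4.78% and 16.8% of all lncRNAs in the same ranges. The lncRNAs that rose at D4 lay a median of 54486 bp from the nearest gene, those that fell 23313 bp and those not called 29794.5 bp. These medians count each lncRNA, although the 41 rises came from 34 loci, the 26 falls from 26 and the 474 not called from 399. Whether the distances differ was not tested.

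**Figure D2:**
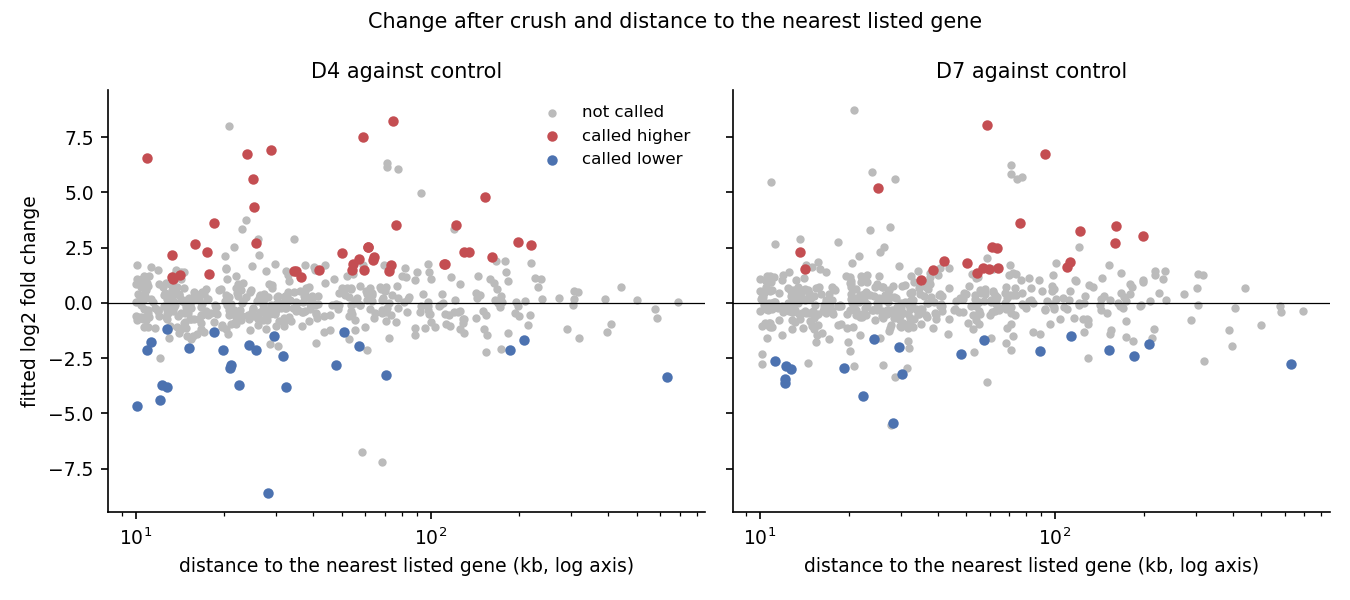
Fitted log2 fold change of the 541 tested lncRNAs on the vertical axis against the distance to the nearest listed gene in kb on a log axis, for D4 and D7 against control; red and blue points were called higher and lower, gray points were not called. The 41 rises at D4 spread from 10918 to 218895 bp from a gene, and 20 of the 26 falls, 18 of the 41 rises and 314 of the 474 not called lay within 50000 bp.

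Among the lncRNAs with the largest rises at D4, several were not counted at all in control nerve. NONRATT000960.2 (chr1:157841164-157846214, 74532 bp from the nearest listed gene) had 0 and 0 counts in control, 33 and 47 at D4 and 9 and 3 at D7. Both D4 libraries stood above all others, and the D7 libraries lay between. Set against a floor of 3 counts per library, D4 was at least 11.8-fold higher than control (adjusted p = 0.0192), and D7 was at least 1.86-fold higher without passing the test (adjusted p = 0.0876). The nearest gene with enough counts to test was Prcp, a serine carboxypeptidase 90995 bp away, which had 607, 529, 2075, 1961, 1141 and 1225 counts from control a to D7 b and rose at D4 by 1.32 ± 0.12 (SE) on the log2 scale (adjusted p = 0.000526).

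NONRATT025988.2 was absent from the counts of both control libraries and present in all 4 injured ones. Its locus (chr7:102650147-102723586) began 58910 bp from Myc, the gene of a transcription factor that drives cell growth. The wide interval between Myc and RGD1359449, 1909777 bp, holds 10 RefSeq genes, among them Pvt1, a lncRNA gene next to Myc. The counts of NONRATT025988.2 were 0 and 0 in control, 18 and 30 at D4 and 32 and 35 at D7. D4 was at least 7.06-fold higher (adjusted p = 0.0132) and D7 at least 10.4-fold higher (adjusted p = 0.0151), while D7 did not differ from D4 by the test (log2 fold change 0.56 ± 0.39, adjusted p = 0.644). Myc itself had 557 and 313 counts in control, 866 and 937 at D4 and 568 and 503 at D7, and was not called (0.56 ± 0.20 at D4, adjusted p = 0.062).

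A pair of further lncRNAs also had no control counts. NONRATT025435.2 (chr6:147201565-147202327) had 0 and 0 counts in control, 12 and 20 at D4 and 4 and 8 at D7. D4 exceeded control by at least 4.71-fold (adjusted p = 0.0307), a call that was lost whichever library was left out. The gene 28752 bp away was Itgb8, an integrin subunit, whose counts were 5852 and 4279 in control and 27532 and 35521 at D4 (2.13 ± 0.16 on the log2 scale, adjusted p = 0.000311). NONRATT008998.2 (chr13:92046119-92049717) had 0 and 0, 12 and 16, and 5 and 10 counts, with D4 above control by at least 4.14-fold (adjusted p = 0.0311). Its nearest gene Mnda, an interferon-inducible nuclear protein, had 150 and 195 counts in control and 523 and 552 at D4 and was not called (adjusted p = 0.0636). The table names NONRATT008998.2 after a gene symbol, Ifi203.

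The other lncRNAs with the largest rises at D4 had a few control counts. NONRATT022770.2 (chr5:156343750-156344123) had 1 and 0 counts in control, 24 and 43 at D4 and 20 and 28 at D7. The rule that named it for D4 and D7 required every injured library to lie above both controls. The ratio of D4 to control was 59.9 with an exact 95% interval of 10.4 to 2399.9 that covers counting error only (adjusted p = 0.0155), and at D7 it was 44.9 (7.68 to 1810.3, adjusted p = 0.0274), a call lost whichever library was left out. The nearest gene Ece1, 25079 bp away, was not called (-0.36 ± 0.18 at D4, adjusted p = 0.15). The table names NONRATT022770.2 after Eif4g3, the gene on its other side, 52572 bp away. Eif4g3 rose by 0.54 at D4 (adjusted p = 0.00549) and 0.71 at D7 (adjusted p = 0.00256), both under 2-fold. NONRATT024698.2 (chr6:137145391-137146089) had 1 and 1, 13 and 18, and 10 and 6 counts, a ratio of 13.9 at D4 (3.52 to 119, adjusted p = 0.0236).

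A pair of lncRNAs stood out by a peak at D4. NONRATT019014.2 (chr3:727599-727982) had 5 and 0 counts in control, 84 and 77 at D4 and 13 and 5 at D7, a rise of 4.80 ± 0.93 at D4 (adjusted p = 0.0324). NONRATT015038.2 (chr2:52825921-52830428) had 7 and 1, 104 and 80, and 4 and 16 counts, a rise of 4.35 ± 0.87 (adjusted p = 0.0361). In FPKM the D7 range overlapped that of control for NONRATT015038.2 and lay above it for NONRATT019014.2. The log2 difference of D7 from D4 was -3.09 ± 0.79 and -3.13 ± 0.78 without passing the test (adjusted p = 0.237 and 0.235).

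**Figure D3:**
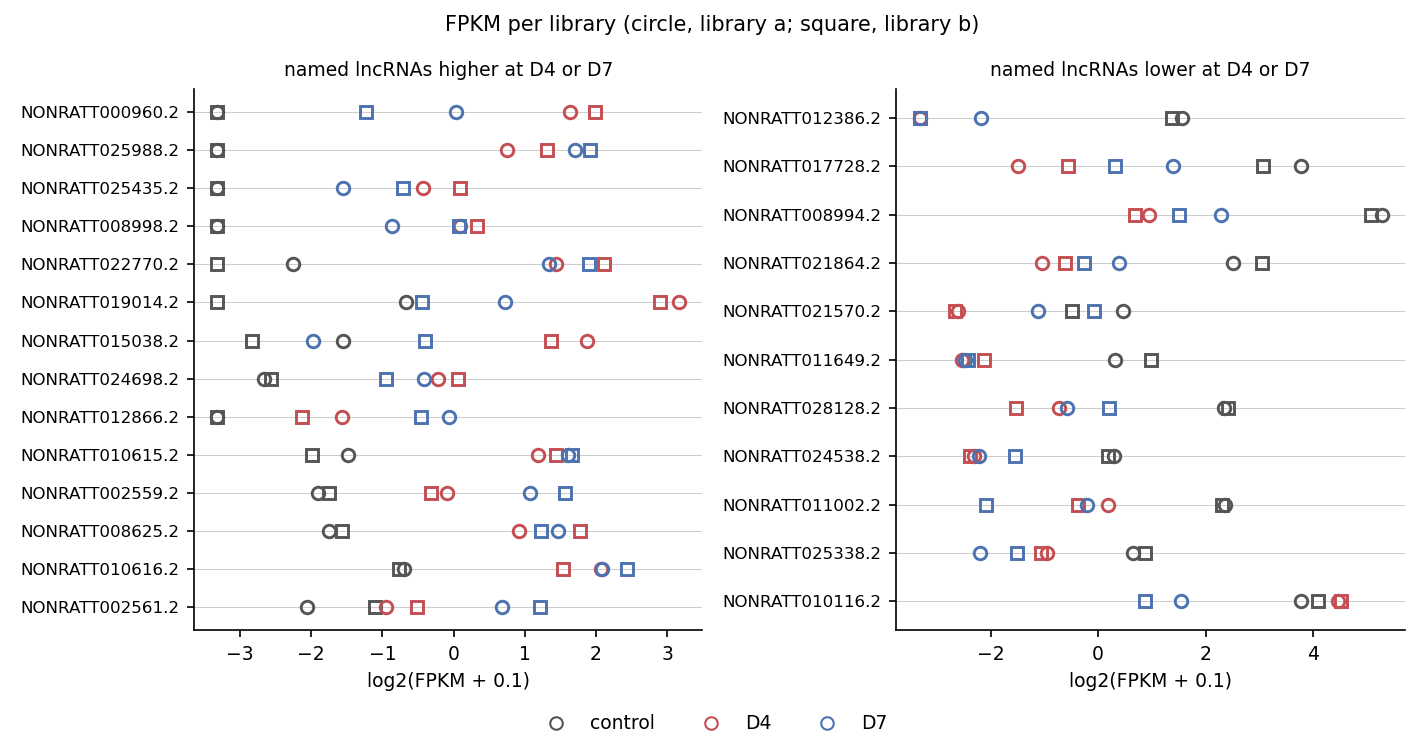
Level of the lncRNAs with the largest rises (left) and falls (right) at D4 or D7 in each library, as log2(FPKM + 0.1) on the horizontal axis; circles are libraries a and squares libraries b, gray for control, red for D4 and blue for D7. A lncRNA with 0 counts sits at the left edge. The lncRNAs shown were chosen to have both libraries of the called group on the same side of both controls.

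Among the largest falls at D4 was NONRATT012386.2 (chr17:24463929-24465297), with 53 and 39 counts in control, 0 and 0 at D4 and 2 and 0 at D7. D4 was at least 17.0-fold lower than control (adjusted p = 0.0202), and D7 was lower by a ratio of 49.2 (13.2 to 412, adjusted p = 0.0387). Its nearest gene went the other way: Cd83, a surface protein of activated antigen-presenting cells 28139 bp away, had 131 and 63 counts in control and 439 and 357 at D4 (1.56 ± 0.30, adjusted p = 0.00781). On the other side, 35267 bp away, lay a copy of the small nuclear RNA U6, which had 15 and 10 counts in control and 1 and 2 at D4.

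NONRATT008994.2 (chr13:91829689-91830220) was among the falls with the most counts. It had 504 and 369 counts in control, 24 and 22 at D4 and 56 and 30 at D7. The rule that named it for D4 and D7 required that neither injured group overlap control. The fitted log2 fold change was -4.39 ± 0.38 at D4 (adjusted p = 0.00411) and -3.43 ± 0.36 at D7 (adjusted p = 0.0106), and both were called with each of the 6 libraries left out in turn. It lay 12113 bp from Cadm3, a cell adhesion molecule of the axon-glia contact, which had 14935 and 9973 counts in control, 1109 and 1211 at D4 and 2264 and 1581 at D7 and fell by 3.92 ± 0.20 at D4 (adjusted p = 0.000134). RefSeq places a further protein-coding gene, Ackr1, in the 65936 bp interval between Mptx and Cadm3, and Ackr1 was not analysed here.

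NONRATT021864.2 (chr4:159091741-159096860) lay between Kcna5 and Kcna1, which encode voltage-gated potassium channels. It had 73 and 90 counts in control, 5 and 8 at D4 and 14 and 8 at D7, and fell by 3.80 ± 0.42 at D4 (adjusted p = 0.00752) and by 2.98 ± 0.40 at D7 (adjusted p = 0.0175). Both neighbours fell too. Kcna5, 12738 bp away, had 733, 635, 191, 238, 101 and 51 counts from control a to D7 b (-2.19 ± 0.26 at D4, adjusted p = 0.00139), and Kcna1, 93944 bp away, had 4255, 2657, 116, 162, 661 and 309 (-5.14 ± 0.40 at D4, adjusted p = 0.000334).

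In other falls the nearest gene was not called or had no counts. NONRATT028128.2 (chr8:124299586-124300470) had 108 and 96 counts in control, 11 and 6 at D4 and 11 and 19 at D7, a fall of 3.71 ± 0.46 at D4 (adjusted p = 0.00969). Its nearest gene Tgfbr2, a receptor of transforming growth factor beta, lay 12284 bp away with 6315 and 4303 counts in control and 6714 and 7180 at D4 (-0.11, adjusted p = 0.54). NONRATT017728.2 (chr20:22285037-22286538) had 213 and 109 counts in control, 4 and 10 at D4 and 35 and 15 at D7, a fall of 4.66 ± 0.64 at D4 (adjusted p = 0.0132), beside a nearest listed gene with 0 counts in all libraries. The gene on its other side, AABR07044824.1 at 134213 bp, had 71 and 51 counts in control and 3 and 2 at D4 (-5.03 ± 0.65, adjusted p = 0.0018). NONRATT011649.2 (chr16:77824892-77825457) had 16 and 22 counts in control and 1 or 2 in every injured library (D4 lower by a ratio of 14.2, 4.50 to 71.8, adjusted p = 0.0192).

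The remaining falls among the largest rested on few counts. NONRATT021570.2 (chr4:118122760-118127821) had 20 and 8 counts in control, 1 and 1 at D4 and 5 and 11 at D7 (D4 lower by a ratio of 15.7, 3.95 to 136, adjusted p = 0.0467), and was not called with any of the 6 libraries left out, nor without TMM factors. Its nearest gene Fam136a, 32326 bp away, was not called (0.20 ± 0.20 at D4, adjusted p = 0.443). On the other side, 76416 bp away, lay Tgfa, a growth factor gene with 2826 and 2053 counts in control and 633 and 847 at D4 (-2.23 ± 0.15, adjusted p = 0.000231). NONRATT024538.2 (chr6:113266397-113267191) had 22 and 17 counts in control, 2 and 2 at D4 and 2 and 4 at D7 (D4 lower by a ratio of 10.9, 3.94 to 42.0, adjusted p = 0.022). It lay 631229 bp from Nrxn3, the most distant of the called lncRNAs.

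The largest rises at D7 included NONRATT025988.2 and NONRATT022770.2 and others that are described here. NONRATT012866.2 (chr17:21105311-21110715) had 0 and 0 counts in control, 5 and 3 at D4 and 16 and 11 at D7, and D7 exceeded control by at least 4.19-fold (adjusted p = 0.0405). NONRATT008625.2 (chr13:23334015-23334424) had 2 and 2, 18 and 37, and 24 and 19 counts, a ratio of 10.1 at D7 (3.66 to 38.6, adjusted p = 0.0341). Both of these D7 calls were lost whichever library was left out. NONRATT010615.2 (chr15:59356356-59356991) had 4 and 2, 34 and 45, and 41 and 40 counts, a rise of 3.61 ± 0.41 at D7 (adjusted p = 0.0121), and NONRATT010616.2 (chr15:59478536-59478930), also between Ccdc122 and Enox1, had 5 and 4, 40 and 30, and 36 and 43 (3.01 ± 0.41, adjusted p = 0.018). In this pair the D4 libraries also exceeded both controls, which the naming rule required only of the D7 libraries. The nearest gene Ccdc122, 76389 and 198569 bp away, had 25 and 30 counts in control and 27 and 17 at D7 and was not called (-0.54 ± 0.40, adjusted p = 0.325). Enox1 on the other side, 321174 and 199235 bp away, had 86 and 54 counts in control and 459 and 371 at D7 (2.37, adjusted p = 0.00119).

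Falls called at D7 but not at D4 included NONRATT011002.2 (chr15:43404578-43406001), with 176 and 143 counts in control, 36 and 26 at D4 and 24 and 4 at D7 (-3.60 ± 0.73 at D7, adjusted p = 0.04999). It lay 12127 bp from Adra1a, an alpha-adrenergic receptor with 335 and 296 counts in control and 52 and 43 at D7 (-2.94 ± 0.23, adjusted p = 0.000593). NONRATT025338.2 (chr6:132671661-132672050) had 14 and 14, 4 and 4, and 1 and 2 counts, and D7 was lower by a ratio of 9.98 (3.08 to 51.3, adjusted p = 0.0375). Its nearest gene, the transcription factor gene Yy1, was not called (0.14, adjusted p = 0.427).

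Between the injured groups, 2 of the 541 lncRNAs differed, or 0.370%, beside 0.249% of all lncRNAs, of which 0.142% were higher at D7 and 0.107% lower. NONRATT010116.2 (chr14:85928142-85928565) had 142 and 149 counts in control, 227 and 262 at D4, and 26 and 15 at D7. Its D7 libraries stood far below the other 4: D7 was lower than D4 by 3.50 ± 0.31 on the log2 scale (adjusted p = 0.0279), lower than control by 2.92 ± 0.30 (adjusted p = 0.0105), and D4 was not called against control (0.58 ± 0.27, adjusted p = 0.227). The nearest gene was Mrps24, a mitochondrial ribosomal protein 19200 bp away, with 181 and 250 counts at D4 and 224 and 171 at D7 (0.19, adjusted p = 0.619).

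NONRATT027531.2 (chr8:28408529-28409978) showed the opposite course. It had 185 and 157 counts in control, 24 and 31 at D4, and 173 and 123 at D7, so that the D7 libraries were back among the control values. It fell at D4 by 2.79 ± 0.26 (adjusted p = 0.005) and was higher at D7 than at D4 by 2.49 ± 0.26 (adjusted p = 0.0478). Igsf9b, an adhesion molecule of the immunoglobulin superfamily 21146 bp away, had 1008 and 781, 174 and 245, and 969 and 585 counts, with log2 fold changes of -2.61 ± 0.25 at D4 (adjusted p = 0.000612) and 2.20 for D7 against D4 (adjusted p = 0.0148). Of all mRNAs tested, 2.18% were called between these groups, 1.68% higher and 0.494% lower at D7. No other member passed this comparison, and 78 of the 541 had an unadjusted p under 0.05, beside 1764 of all 14077 lncRNAs tested. DESeq2 called 9. Without D7 a 1 of the pair was called and without any other single library 0.

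At 5 loci more than 1 member was called, in each case upward. The most abundant lay in the interval between Mrpl23, a mitochondrial ribosomal protein, and Igf2, an imprinted growth factor gene. RefSeq also places H19 in that interval, and positions were not compared across builds. NONRATT003362.2 (chr1:215744405-215745948) had 3866 and 2563 counts in control, 9368 and 10181 at D4 and 7137 and 6908 at D7. It rose by 1.45 ± 0.17 at D4 (adjusted p = 0.00787) and by 1.04 ± 0.17 at D7 (adjusted p = 0.0276). The D7 call was lost by DESeq2 and without any single library other than control a. NONRATT003363.2 (chr1:215745789-215746158) had 1147 and 1112, 2598 and 3180, and 2215 and 1737 counts, and rose by 1.19 ± 0.15 at D4 (adjusted p = 0.0104).

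These loci overlap, so reads in the shared part could have been counted for either. In both, all 4 injured libraries exceeded both controls, and together the pair took 9.18% and 7.56% of all counts of the lncRNAs far from genes in control, 19.7% and 20.2% at D4 and 16.2% and 15.5% at D7. With joint scaling of lncRNAs and mRNAs NONRATT003363.2 rose by 0.97 at D4 and was no longer called. Igf2 had 3404 and 1840 counts in control, 3058 and 3352 at D4 and 5669 and 1365 at D7, and was not called on either day (-0.20 at D4, adjusted p = 0.802). Mrpl23 was not called either (0.38 at D4, adjusted p = 0.122).

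At chr1:137409276-137427306, between Klhl25 and Agbl1, 6 lncRNAs were listed and 5 tested, and all 5 rose on both days. NONRATT002775.2 had 202 and 185 counts in control, 752 and 693 at D4 and 528 and 518 at D7 (1.75 ± 0.17 at D4, adjusted p = 0.00579, and 1.34 ± 0.17 at D7, adjusted p = 0.0156). NONRATT002776.2 had 140 and 117, 561 and 572, and 402 and 422 counts (1.98 ± 0.17 at D4, adjusted p = 0.0044). The rises of NONRATT002773.2, NONRATT002777.2 and NONRATT002778.2 at D4 were 2.27, 1.49 and 2.08. The locus of NONRATT002773.2 spans the others, and whether these are separate transcripts was not tested. The locus as a whole had 442 and 399 counts in control, 1715 and 1670 at D4 and 1245 and 1267 at D7. The D7 calls of NONRATT002773.2, NONRATT002777.2 and NONRATT002778.2 were lost whichever library was left out, and that of NONRATT002775.2 without either control or either D7 library. Klhl25, 50204 bp away, was not called (0.63 at D4, adjusted p = 0.0162 with a change under 2-fold).

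The chromosome 10 locus held NONRATT006386.2 (chr10:112491891-112500665), with 395 and 433 counts in control, 1662 and 1959 at D4 and 2548 and 2403 at D7. Both D7 libraries were above both D4 libraries in FPKM, although that difference did not pass (0.52 ± 0.14, adjusted p = 0.25). The rises against control, 1.96 ± 0.14 at D4 (adjusted p = 0.0026) and 2.48 ± 0.14 at D7 (adjusted p = 0.00256), were called with each library left out in turn. NONRATT006390.2 (chr10:112502527-112503048), from the same locus, had 10 and 9, 43 and 84, and 50 and 69 counts and rose by 2.55 ± 0.42 at D4 (adjusted p = 0.0213). The other 3 lncRNAs of the locus were tested and not called. The table names the pair after the protein domains zf-C2H2, a zinc finger, and KRAB, both of which are found in DNA-binding proteins.

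The other such loci were smaller. At chr1:93689756-93691985, 159469 bp from the zinc finger gene Zfp536, NONRATT002559.2 had 3 and 3, 15 and 14, and 32 and 43 counts (D7 higher by a ratio of 11.7, 5.13 to 32.9, adjusted p = 0.0148), and NONRATT002561.2 had 5 and 11, 15 and 24, and 48 and 67 (2.72 ± 0.51 at D7, adjusted p = 0.0404). At chr5:118344635-118346588, NONRATT023411.2 had 182 and 87, 465 and 522, and 364 and 330 counts (1.73 ± 0.33 at D4, adjusted p = 0.0314), and NONRATT023412.2 had 91 and 52, 173 and 257, and 204 and 189 (1.43 ± 0.30, adjusted p = 0.0411). RefSeq places Foxd3, a transcription factor gene of the neural crest lineage, in the interval of the chromosome 5 pair, and Foxd3 was not analysed here.

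**Figure D4:**
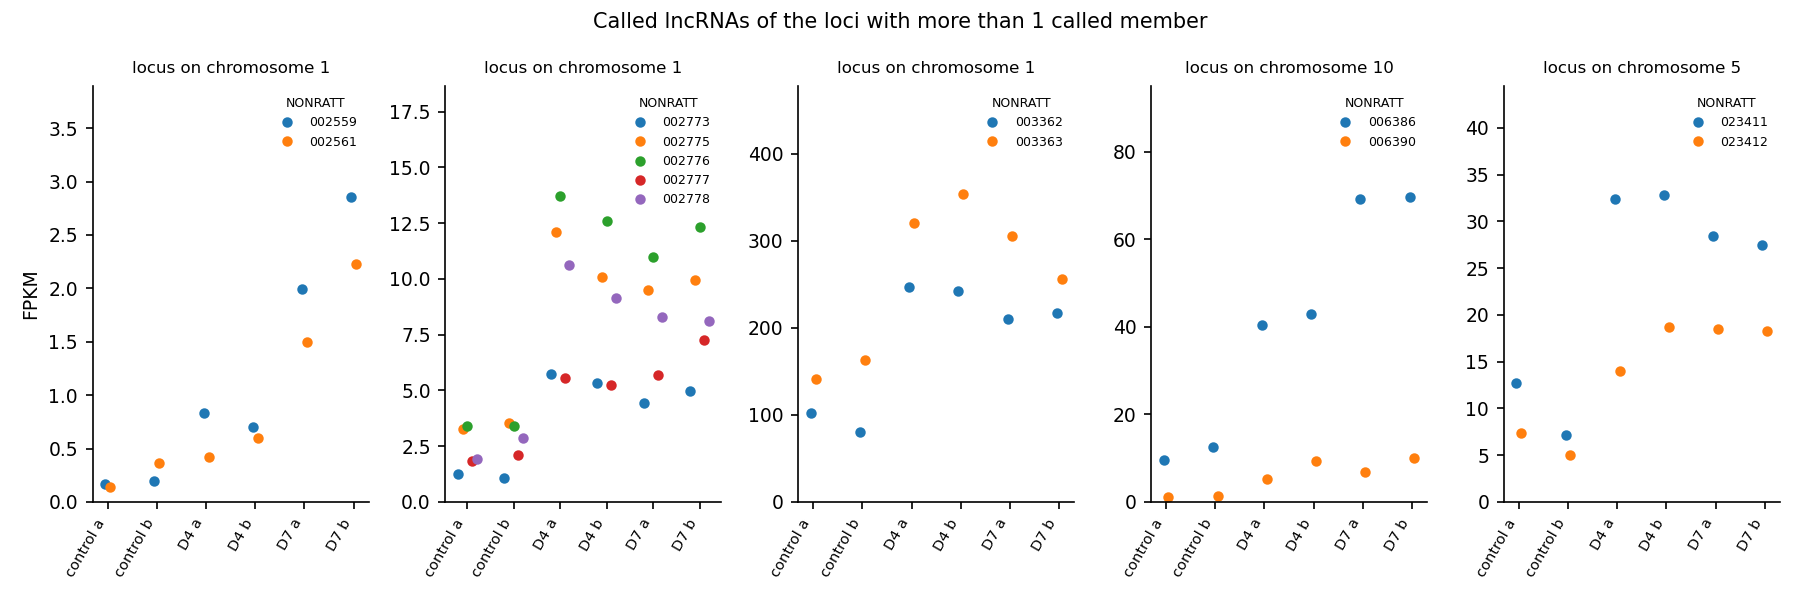
FPKM per library (vertical axis, from 0 in each panel) of the called lncRNAs at the 5 loci with more than 1 called member, on chromosomes 1, 1, 1, 10 and 5; each color is 1 lncRNA, named by the digits after NONRATT. In each panel the D4 and D7 points lie above the control points of the same lncRNA. The points of NONRATT002559.2, NONRATT002561.2, NONRATT002777.2 and NONRATT006386.2 are highest at D7.

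Of the 5 members with the highest mean FPKM, 3 are described, namely NONRATT003363.2 (257), NONRATT003362.2 (183) and NONRATT016064.2 (74.7), and nothing is read from the direction of these 3 about abundant members in general. NONRATT016064.2 (chr2:33933906-33952807), 13069 bp from Erbb2ip, which encodes a binding partner of the receptor ERBB2, had 755 and 600 counts in control, 1319 and 1378 at D4 and 1103 and 1060 at D7. Its rise of 0.84 ± 0.14 at D4 had an adjusted p of 0.0229 but was under 2-fold. Erbb2ip rose by 0.67 (adjusted p = 0.00204), also under 2-fold. Miat, a lncRNA described in heart and neural tissue, was matched to NONRATT007649.2 by accession and had 83 and 139 counts in control, 121 and 221 at D4 and 135 and 218 at D7, with library b above library a in each group and the groups overlapping (0.43 ± 0.43 at D4, adjusted p = 0.569).

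Genes next to the changed lncRNAs were compared with them at D4. Among the 26 falls, 14 nearest genes had enough counts to test, of which 8 fell, 1 rose and 5 were not called. Among the 41 rises, 29 nearest genes were tested, of which 3 rose, 1 fell and 25 were not called. Among the members not called, 291 nearest genes were tested, of which 19 rose and 35 fell. Of all mRNAs tested at D4, 21.9% were called, 11.2% higher and 10.7% lower. The difference between these groups was not tested, and several lncRNAs share a nearest gene.

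The 8 pairs that fell together at D4 were, beside Cadm3, Kcna5 and Igsf9b, Auts2, Ppm1l, Mvb12b, Gprasp1 and AABR07003304.2, with gene changes from -1.18 to -3.92. The 3 pairs that rose together had Itgb8, Rad51b (2.16) and Nr6a1 (1.14) as the gene. The opposite pairs were NONRATT012386.2 with Cd83, and NONRATT003383.2, which had 16 and 5 counts in control and 66 and 85 at D4 (a rise of 2.68), with Osbpl5, a lipid transfer protein that fell by 2.55. At D7, 4 of 9 nearest genes tested beside a fallen lncRNA fell and 1 rose, and 2 of 18 beside a risen one rose and 0 fell, beside 18.8% of all mRNAs called, 9.83% higher and 9.02% lower. These pairs were named after their values were seen.

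**Figure D5:**
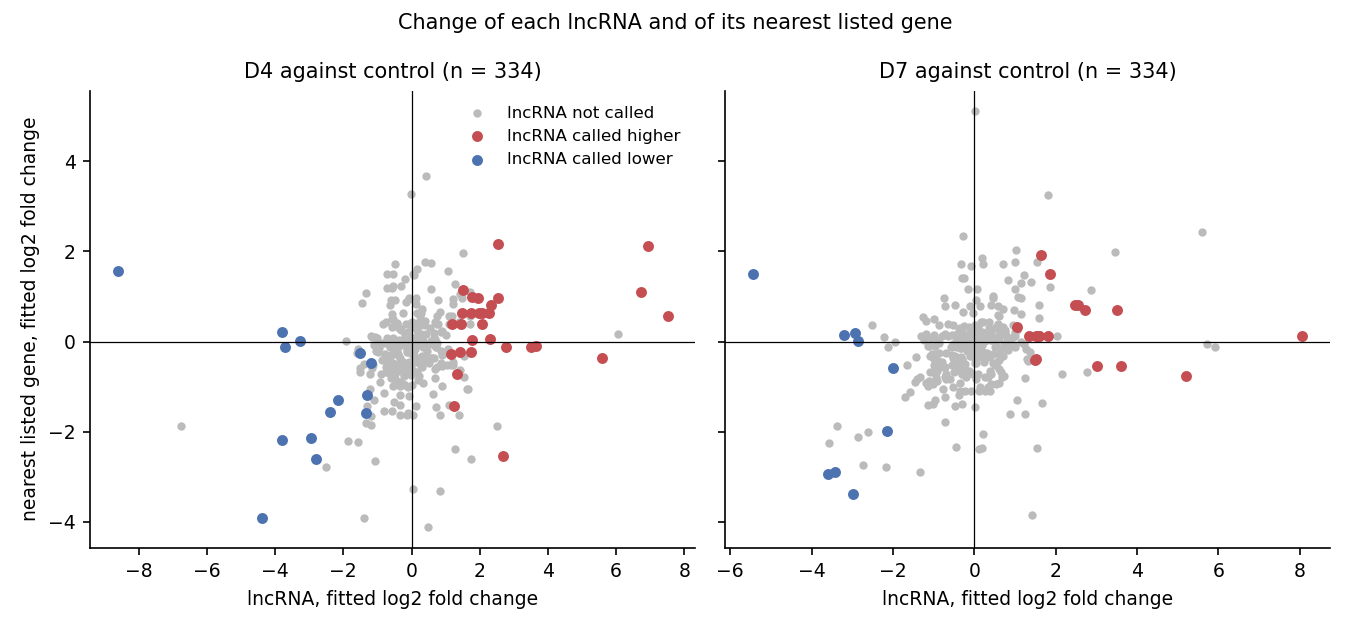
Fitted log2 fold change of the nearest listed gene (vertical axis) against that of the lncRNA (horizontal axis) for the 334 tested lncRNAs whose nearest gene was tested, at D4 and D7 against control; red and blue points are lncRNAs called higher and lower, gray points lncRNAs not called. At D4 most blue points sit at the lower left, with NONRATT012386.2 and Cd83 at the upper left, and the red points lie on both sides of 0 on the vertical axis.

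Further called members lay in intervals with named RefSeq RNAs, and they were named after their values were seen. NONRATT014558.2 (chr19:25301962-25304248), in the 32348 bp interval between Nanos3 and Zswim4 that holds the miR-23a, miR-27a, miR-24-2, miR-181c and miR-181d genes (mature sequences above), had 10 and 8 counts in control, 18 and 32 at D4 and 45 and 51 at D7. It rose by 2.31 ± 0.38 at D7 (adjusted p = 0.0302), with both D7 libraries above all others. Zswim4, 16435 bp away, had 236 and 264 counts in control and 639 and 646 at D7 (1.14 ± 0.16, adjusted p = 0.00305). NONRATT024636.2 (chr6:133697428-133697912), 13242 bp from Rtl1 in the imprinted Dlk1 interval with Meg3 and 7 miRNA genes, had 20 and 9, 79 and 65, and 30 and 33 counts, and rose by 2.16 ± 0.41 at D4 (adjusted p = 0.0319).

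In wider intervals the RefSeq genes are less tightly tied to the lncRNA. NONRATT030413.2 (chrX:3684579-3685524), in a 2149692 bp interval that holds Mir221 and Mir222, had 14 and 24 counts in control, 111 and 152 at D4 and 61 and 52 at D7 (2.60 at D4). NONRATT028445.2 (chr8:46230113-46231180), in a 1149965 bp interval with Mir100, Mirlet7a-2 and Mir125b1, had 209 and 234, 64 and 50, and 30 and 60 counts (-2.11 at D4 and -2.39 at D7). In both, control and injured libraries did not overlap.

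On either side of the distance limit lay 1 tested transcript each. NONRATT002445.2, the closest tested member inside the limit at 10002 bp from LOC100360638, had 14 and 12 counts in control, 16 and 14 at D4 and 17 and 41 at D7 and was not called. NONRATT028874.2, just outside the limit at 9968 bp from Chst2, had 15 and 24, 3 and 1, and 0 and 0 counts, and D7 was at least 7.02-fold lower than control (adjusted p = 0.0403). The other members farthest from any gene among those tested, NONRATT008642.2 (690806 bp, 17 and 14, 22 and 13, and 11 and 15 counts) and NONRATT024819.2 (584347 bp, 16 and 9, 8 and 9, and 1 and 19 counts), were not called, and their groups overlapped.

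The cell makeup of the nerve, as read from marker mRNAs, moved with the same groups. All 10 markers of myelinating Schwann cells fell at D4, and their summed FPKM was 39979 and 28163 in control, 1557 and 1844 at D4 and 8124 and 5091 at D7. Of the 9 repair Schwann cell markers 7 rose on each day, all 11 macrophage markers rose at D4 and 9 at D7, with sums of 286 to 309.95 in control and 1605 to 1643 at D4, and all 8 markers of dividing cells rose on both days. Of the 7 T cell markers 4 rose and 1 fell at D4 and 6 rose at D7. None of 5 tested fibroblast markers passed at D4 and 1 fell at D7, while 3 of 5 endothelial markers fell at D4 and 5 at D7.

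Markers of other tissues varied between single libraries, and the blood and adipocyte sums were also higher in control. The blood sum was 1384 and 1607 FPKM in control, 1071 and 987 at D4, and 124 and 836 at D7. The adipocyte sum was 542 and 451 in control, 170 and 88.0 at D4, and 9.05 and 234 at D7. For both sums, both controls exceeded every injured library. Of the 8 adipocyte markers 0 were called at D4 and 1 was lower at D7. Of the 5 blood markers 0 were called at D4 and 2 were lower at D7. The skeletal muscle sum was 47.4 in D4 a against 4.74 to 23.6 elsewhere. Markers of neuron cell bodies summed to 17.6 to 31.2, with 2 of 4 tested lower at D7. In whole nerve, more or fewer cells of a type and more or less RNA per cell cannot be told apart, and the part of these markers in the changes of the lncRNAs was not tested.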

How the data were processed

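RNA of 6 rat sciatic nerves, 2 per group (control, D4, D7), was depleted of rRNA and sequenced. Reads were aligned by the authors to Rnor_6.0 with HISAT2 2.0.4 and assembled with StringTie 1.3.0. The deposited tables hold raw read counts per lncRNA transcript and per gene for mRNAs, made by the authors, and FPKM values, which the authors scaled to transcript length and library size. Whether counting used strand is not given in the sources used here, so antisense reads cannot be told apart.

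Counts were tested in R 4.3.3 with edgeR 4.0.16: filterByExpr, TMM factors and the quasi-likelihood test, in 1 fit of the 6 libraries for all 22721 lncRNAs, with Benjamini-Hochberg adjustment over the 14077 tested. A lncRNA was called at an adjusted p under 0.05 and a log2 fold change of at least 1 in size. Errors after ± are SE of log2 fold changes. The 30957 mRNAs were fitted in the same way. The p-values rest on the spread between the 2 rats of each group, pooled over all groups and partly shared across the RNAs tested. The lncRNAs and marker lists were chosen with earlier results of these data known.

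The text names, per day, the 8 called lncRNAs with the largest rise and the 8 with the largest fall that lay on the same side of both controls and had a group mean of at least 0.5 FPKM. It also names those called between D7 and D4, 3 of the 5 most abundant (the others are not reported here), the 3 farthest tested, those next to the distance limit, and loci with more than 1 called member. Where a group had no counts, the fold given as at least a value was set against 3 counts per library. It carries no error of the counted group and is not a confidence bound. Where a group had some counts but at most 3 in each library, ratios carry exact 95% intervals, which cover counting error only. Other software was Python 3.11.15, pandas 2.3.3, numpy 2.4.6, scipy 1.17.1 and matplotlib 3.10.9. In data simulated for D4 against control, the test recovered 3 of 100 changes of 4-fold and 73 of 100 of 16-fold. It made 8 false calls among the 14077 lncRNAs. Neighbouring genes were ordered with RefSeq (GRCr8), whose 17813 matched genes gave names only.

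Libraries that share a letter come from different rats, and their deviations from the group means correlated by 0.05, 0.06 and 0.01 across lncRNAs, so the letters do not pair the samples. Alternatives were DESeq2 1.42.0, other scaling, filters, thresholds, distance limits, a replicate block, and leaving out each library. GC content and repeats of the loci were not analysed here.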

Additional observations from a re-analysis of the deposited data

Results flagged for a closer look

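A pair of lncRNAs differed between the injured groups under the same control. NONRATT010116.2 was lower at D7 than at D4 by a log2 fold change of -3.50, and NONRATT027531.2 was higher by 2.49, each by the edgeR test of that difference (adjusted p = 0.0279 and 0.0478). The first call was kept with 1 of the 6 libraries left out and the second with 0.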

How the results depend on the processing

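With 2 rats per group the number of called lncRNAs depended on the processing. The settings named below tested 541 of these lncRNAs, except 1375 with no low-count filter. The limits of 20000 and 50000 bp left 375 and 189, and changed only which lncRNAs were counted. At D4, 67 were called against control, and 18 when the 2-fold change itself was tested, 34 with no low-count filter, 42 with only the compared groups in the fit, 29 at more than 50000 bp from a gene, and 6 to 44 with 1 library left out. At D7 the count was 41, and 7, 15, 15, 23 and 4 to 14 in the same order, with 71 by DESeq2. For D7 against D4 the count was 2, and 0 under each of these, except 1 at more than 20000 bp, 9 by DESeq2 and 0 to 1 with 1 library left out. The library letter as a replicate block gave 31 calls at D4, 17 at D7 and 0 for D7 against D4. The other settings gave counts within 1.5 times. Without D7 a or D7 b the D4 fit had fewer libraries to estimate the spread. A lone library left in a group was assumed to vary like the others. No named call reversed. Of 60 named calls, 36 were lost when the 2-fold change was tested, 23 under the block, 23 with no filter, 21 with only the compared groups, 3 with joint scaling and 2 by DESeq2. Depth left 869 lncRNAs untested. An alternative on repeats and GC content was not run. The median log2(FPKM + 1) of 0.32 to 0.40 became -1.53 to -1.25 with a pseudocount of 0.1.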
